A study of Homo sapiens and Mus musculus with 33 samples.

Results

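The cells described here are eHAP barcodes, eHAP being a human haploid cell line, taken in the part of the cell cycle in which messenger RNAs of mitotic genes are most abundant. They were chosen by a score from their own counts: the unique molecules (UMIs) of CCNB1, PLK1, CDC20, AURKA, UBE2C and CENPF divided by all UMIs of the barcode. Within the standard 10x library and the NOTE-seq library, each apart, the 20% of barcodes with the highest score among those with at least 5000 UMIs are called mitotic-phase, and the lowest 40% are called low-score. This gave 494 mitotic-phase and 987 low-score barcodes of 2807 deposited in the standard 10x library, and 542 mitotic-phase and 1084 low-score barcodes of 3046 in the NOTE-seq library. Together these are 1036 mitotic-phase barcodes among 5177 eHAP barcodes with at least 5000 UMIs and among 30019 barcodes in all single-cell libraries of the study. Mitotic phase is a range of a continuous score, cut at a fixed share, and 296 barcodes of the standard 10x library and 357 of the NOTE-seq library lay within 10% of the upper cut. The last barcodes inside it had 15.12 and 15.32 score UMIs per 10000 UMIs in the 2 libraries, and the first outside it had 15.10 and 15.32.

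The study set up NOTE-seq, a droplet-based 3' end assay in which cells labelled with 4-thiouridine (4sU) are fixed with formaldehyde and chemically converted, so that newly made RNA can be read. Of its 33 samples, the 2 used to choose genes are eHAP NOTE-seq (4sU labelled) and eHAP standard 10x (no 4sU), 1 library each. Further libraries were a methanol-fixed eHAP library (4sU and iodoacetamide) and 2 NOTE-seq libraries of Jurkat T cells (clone E6-1, a line from human leukaemia), labelled with 4sU and without PMA/ionomycin stimulation. Bulk SLAM-seq of Jurkat cells gave 3 libraries with 1 µM ETO, 3 with 50 nM CPT and 3 control libraries, all 4sU labelled, with the agents named here only by the labels' abbreviations. Nothing in the labels gives the source culture of a replicate, so p-values reflect how far these libraries vary, which can be technical variation alone.

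Cells divide after cyclin B and CDK1 become active, and their mitotic machinery is built from proteins whose genes are transcribed late in the cycle. Many such genes carry the cell cycle genes homology region (CHR) in their promoters, which binds the repressive DREAM complex in resting and early cycle cells and B-MYB and FOXM1 complexes later. Genes of DNA replication and histone genes peak earlier, at the G1/S boundary and in S phase, the replication genes largely through E2F factors. UMI counts of a single-cell library report RNA level, so the terms below refer to RNA and not to protein or to chromosome state.

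Mitotic-phase barcodes held more RNA than low-score barcodes, with medians of 23960.5 and 17861 UMIs in the standard 10x library and 11626 and 8836 UMIs in the NOTE-seq library. After thinning to 5000 UMIs the median genes per barcode were 2580 in mitotic-phase and 2596 in low-score barcodes of standard 10x, and 2766 and 2725 in NOTE-seq. Mitochondrial UMIs made up 3.85% in mitotic-phase and 4.42% in low-score barcodes of standard 10x, and 2.14% and 2.21% in NOTE-seq. The libraries held 55960312 and 33951891 UMIs, and 4 barcodes occurred in both. T cell markers were almost absent: 7 of 11 markers had 0 UMIs in both groups of standard 10x, and the 11 summed to 0.72 counts scaled to 1000000 UMIs (CPM) in mitotic-phase and 0.664 CPM in low-score barcodes, while in NOTE-seq they summed to 2.48 and 2.67 CPM, with 2 at 0. Erythroid and myeloid markers, 16 in all, summed to 2.16 CPM in mitotic-phase and 3.22 CPM in low-score barcodes of standard 10x, with 8 at 0, and to 8.62 and 11.4 CPM in NOTE-seq, with 3 at 0. The fibroblast and mesenchymal list, which holds vimentin, summed to 1458 CPM in mitotic-phase and 1428 CPM in low-score barcodes of standard 10x, and 1006 and 1012 CPM in NOTE-seq. Of its 12 genes, 3 had 0 UMIs in standard 10x and 1 in NOTE-seq. Most of the sum was vimentin, which had 1328 CPM over the whole standard 10x library and 785 CPM over the whole NOTE-seq library. All ratios are of CPM over UMIs summed per group, and since the barcodes were chosen by their own counts and each protocol is 1 library, they are descriptions with no test. Their 95% exact binomial intervals cover counting error only.

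The 2 marker genes stood high in the mitotic-phase barcodes, as their place in the score fixes. CCNB1, cyclin B1, had 424 CPM in mitotic-phase and 153 CPM in low-score barcodes of standard 10x, a ratio of 2.78 (2.65 to 2.91), and 347 and 132 CPM in NOTE-seq, a ratio of 2.63 (2.46 to 2.81). PLK1, polo-like kinase 1, had 208 and 48.7 CPM in standard 10x, a ratio of 4.28, and 288 and 73.4 CPM in NOTE-seq, a ratio of 3.93. Aurora kinase A (AURKA) had the largest ratio of the score genes, 4.97 in standard 10x and 4.06 in NOTE-seq, while CDC20, a coactivator of the anaphase-promoting complex, had 2.46 and 2.42, and the kinetochore protein gene CENPF had 3.15 and 2.98.

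UBE2C, the ubiquitin-conjugating enzyme that starts chains for the anaphase-promoting complex, added next to nothing to the score. It had 1 UMI in mitotic-phase and 7 UMIs in low-score barcodes of standard 10x, 6 and 5 in NOTE-seq, and 4 and 4 in the methanol library. Over whole eHAP libraries it reached 0.25 CPM in standard 10x, 0.766 CPM in NOTE-seq and 0.272 CPM in methanol, against 50.8 and 48.9 CPM in the Jurkat libraries. The score of eHAP barcodes therefore rested on 5 genes, in unequal parts. CENPF had the most UMIs of them, at 764 CPM in mitotic-phase barcodes of standard 10x and 720 CPM in those of NOTE-seq. CCNB1 came next, at 424 and 347 CPM. UBE2S, which extends those chains, was abundant in every one of these libraries, at 783, 507 and 929 CPM in eHAP and 216 and 1019 CPM in Jurkat.

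Summed over mitotic-phase and low-score barcodes, 11104 genes had at least 100 UMIs in each library, with the 6 score genes left out. Of these, 82 were at least 1.5-fold higher in mitotic-phase barcodes in both protocols, and 51 at least 1.5-fold lower in both. No gene passed in opposite directions. These are 0.738% and 0.459% of the genes measured. The standard 10x library alone gave 183 higher and 250 lower genes among them, and the NOTE-seq library 150 and 101, so the 82 are 44.8% of the higher genes of standard 10x and 54.7% of those of NOTE-seq, and the 51 are 20.4% and 50.5% of the lower genes. Over the genes that pass the UMI minimum in each library by itself, 1.75% were higher and 3.28% lower in standard 10x, and 1.41% and 1.04% in NOTE-seq. Among the higher genes 65 of 82 had the larger ratio in standard 10x, and among the lower genes 34 of 51 had the larger fall there. The weakest members were SLC7A11, at a log2 ratio of 0.59 in standard 10x, and TP73, at -0.59 in NOTE-seq. With every barcode thinned to 5000 UMIs before scoring, 41 genes were higher and 16 lower. Of these, 40 and 12 were among the 82 and the 51. Thinning leaves fewer UMIs for the score and for each gene, and the part of either was not tested. Just outside the rule stood SGO1, at 0.62 and 0.58 in standard 10x and NOTE-seq, and LMCD1-AS1, at -0.58 and -0.86.

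**Figure D1:**
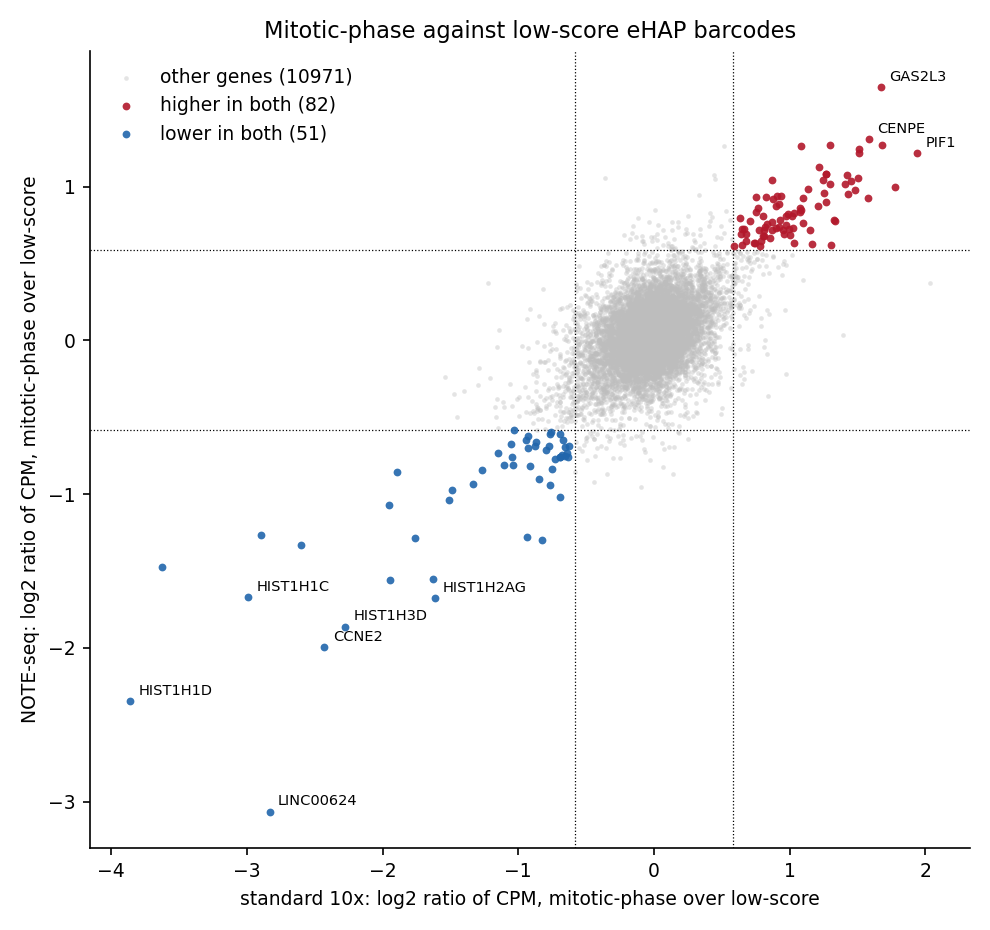
Each point is 1 of 11104 genes, at its log2 ratio of CPM in mitotic-phase over low-score barcodes in the standard 10x library (x axis) and in the NOTE-seq library (y axis), with dotted lines at a fold of 1.5. The 82 genes higher in both and the 51 lower in both sit in opposite corners, the histone gene HIST1H1D and LINC00624 farthest out on the lower side.

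The promoters of the genes are shown first, because they differ between the higher and the lower members. The score read no promoter sequence. It did pick genes that vary with mitotic genes, many of which carry a CHR, so the difference is a description and not independent support. Windows from 250 bases before to 50 bases after each gene's start were taken from RefSeq (GRCh38.p14), where 68 of 82 higher and 36 of 51 lower members have at least 1. The CHR (TTTGAA or TTCGAA, on both strands) occurred in 44 of 68 higher members, 64.7%, and in 5 of 36 lower members, 13.9%, against 15.3% of 8834 genes measured in both protocols and 19.5% of all 27305 genes with a window. Within 40 bases of a start it occurred in 44.1% of the higher members and in 0 of 36 lower members, against 4.38% of the genes measured. The 6 windows below belong to the highest-ranked higher members whose window holds a CHR from 60 bases before to 30 after the start, and the 3 after them to the highest-ranked lower members with an E2F motif in the same stretch (TTTGGCGC, TTTCGCGC or TTTCCCGC, both strands). Each runs 5′ to 3′ along the gene's own strand over 100 bases, from 70 before to 30 after the start, and capitals mark each CHR, E2F motif and CCAAT (or its reverse, ATTGG).
PIF1, chr15:64825618-64825717, minus strand: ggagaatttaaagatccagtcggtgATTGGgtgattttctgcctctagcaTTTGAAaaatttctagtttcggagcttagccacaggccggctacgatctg
G2E3, chr14:30559088-30559187, plus strand: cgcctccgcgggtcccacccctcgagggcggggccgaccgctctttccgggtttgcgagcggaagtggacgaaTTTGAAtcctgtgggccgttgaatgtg
GPSM2, chr1:108876915-108877014, plus strand: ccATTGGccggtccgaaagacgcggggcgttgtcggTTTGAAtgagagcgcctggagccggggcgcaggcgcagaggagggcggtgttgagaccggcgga
DEPDC1, chr1:68497053-68497152, minus strand: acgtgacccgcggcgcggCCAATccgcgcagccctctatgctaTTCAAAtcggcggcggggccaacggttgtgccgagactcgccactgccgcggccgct
PSRC1, chr1:109283116-109283215, minus strand: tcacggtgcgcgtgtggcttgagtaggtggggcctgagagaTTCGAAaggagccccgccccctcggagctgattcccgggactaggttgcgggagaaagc
HMMR, chr5:163460562-163460661, plus strand: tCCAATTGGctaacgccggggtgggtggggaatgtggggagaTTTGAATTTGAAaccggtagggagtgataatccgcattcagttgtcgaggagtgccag
HIST1H2AG (H2AC11 in RefSeq), chr6:27132973-27133072, plus strand: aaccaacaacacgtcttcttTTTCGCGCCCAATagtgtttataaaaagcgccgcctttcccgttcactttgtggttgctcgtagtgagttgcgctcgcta
CDC6, chr17:40287809-40287908, plus strand: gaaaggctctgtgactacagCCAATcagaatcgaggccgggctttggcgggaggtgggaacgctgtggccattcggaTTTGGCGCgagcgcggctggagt
PCNA, chr20:5126593-5126692, minus strand: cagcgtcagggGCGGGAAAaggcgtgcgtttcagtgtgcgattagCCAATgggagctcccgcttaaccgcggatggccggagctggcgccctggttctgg

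The CHR began 20 bases before the start in PIF1, 34 before it in GPSM2, 27 in DEPDC1 and 29 in PSRC1, and HMMR has a tandem pair beginning 28 and 22 bases before it. In G2E3 it began at base 4 after the start. CCAAT boxes, which bind NF-Y, did not tell the members apart by themselves, with 70.6% of higher and 69.4% of lower members against 43.6% of the genes measured. A CHR and a CCAAT box in 1 window occurred in 51.5% of higher members, 11.1% of lower members and 6.43% of the genes measured. The E2F motif occurred in 16.7% of lower members, 4.41% of higher members and 6.02% of the genes measured. The CHR was found in 28 of 38 higher members that belong to the mitotic gene lists and in 16 of 30 that do not. Within the higher members it did not go with the size of the change, with median log2 ratios of 1.05 in standard 10x and 0.83 in NOTE-seq for 44 genes with it, and 0.97 and 0.85 for 24 without it. A match is a description of letters in a window, and a gene has on average 1.44 windows among the higher members and 1.48 among the genes measured.

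Among the higher members the spindle and its motors formed the largest group. Of 39 measured genes of the spindle, microtubule motors and centrosome, 21 were higher in both protocols and 0 were lower. A ratio above 1 in both protocols was found in 37 of the 39, and in 3475 of all 11104 genes measured. Median log2 ratios were 0.79 in standard 10x and 0.63 in NOTE-seq, beside -0.01 and 0.02 over all genes. KIF20A, a kinesin of the central spindle, had 41.6 CPM in mitotic-phase and 14.6 CPM in low-score barcodes of standard 10x, and 91.3 and 38.6 CPM in NOTE-seq. ASPM, which holds microtubules at spindle poles, had 293 and 103 CPM in standard 10x and 261 and 112 CPM in NOTE-seq. KPNA2, an importin that keeps spindle assembly factors inactive until released by Ran, had 462 and 192 CPM in standard 10x and 627 and 297 CPM in NOTE-seq, ratios of 2.41 (2.31 to 2.51) and 2.11 (2.02 to 2.21). DEPDC1 had 147 and 54.8 CPM in standard 10x, and a ratio of 2.11 (1.90 to 2.34) in NOTE-seq. TPX2, an activator of Aurora A on microtubules, HMMR, a spindle pole protein also known as a hyaluronan receptor, and PSRC1, a microtubule-binding protein, had ratios of 2.37, 2.74 and 2.83 in standard 10x and of 2.06, 2.06 and 2.08 in NOTE-seq. ARL6IP1, a membrane protein that shapes the endoplasmic reticulum and stands in this list, had 419 and 149.9 CPM in standard 10x and 285 and 145 CPM in NOTE-seq.

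Kinetochore and centromere genes moved less as a group, with 6 of 28 higher and medians of 0.15 and 0.13, but held some of the largest single ratios. CENPE, the kinesin that carries chromosomes to the spindle equator, had 235 CPM in mitotic-phase and 78.3 CPM in low-score barcodes of standard 10x, a ratio of 3.00 (2.82 to 3.20), and 172 and 69.3 CPM in NOTE-seq, a ratio of 2.48 (2.26 to 2.71). SGO2, which protects cohesin at centromeres, had 102 and 42.5 CPM in standard 10x and 83.8 and 39.6 CPM in NOTE-seq. CENPA, the histone H3 variant of centromeres, had a ratio of 3.42 (3.11 to 3.76) in standard 10x and of 1.99 (1.75 to 2.27) in NOTE-seq. CDCA8, a subunit of the chromosomal passenger complex, had 2.02 and 1.75. The higher members of this list also included BUB1B and NUF2, a checkpoint kinase and a microtubule-binding kinetochore subunit, with ratios from 1.56 to 1.65.

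Cyclins, kinases and phosphatases of mitosis had 8 of 22 genes higher and 0 lower, with medians of 0.64 and 0.49. CDK1, the kinase that drives entry into mitosis, had 247 CPM in mitotic-phase and 98.7 CPM in low-score barcodes of standard 10x, but 164 and 95.6 CPM in NOTE-seq, ratios of 2.50 (2.37 to 2.65) and 1.72 (1.58 to 1.87). NEK2, a kinase that splits centrosomes, had 35.7 and 13.2 CPM in standard 10x and 36.1 and 18.7 CPM in NOTE-seq. CKS2, a CDK1 subunit, had ratios of 2.41 and 1.87, cyclin F (CCNF) had 2.12 and 1.80, and BORA, which helps Aurora A to activate PLK1, had 1.82 and 2.06. Cyclins CCNB2 and CCNA2 stayed outside the rule through NOTE-seq, with log2 ratios of 0.69 and 0.66 in standard 10x and 0.54 and 0.55 in NOTE-seq.

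Cytokinesis genes, which cut the daughter cells apart, had 6 of 13 higher, with medians of 0.48 and 0.57. KIF23 and RACGAP1, partners in the centralspindlin complex, had ratios of 2.11 and 1.96 in standard 10x and of 1.79 and 1.75 in NOTE-seq. PRC1, which bundles microtubules of the central spindle, had 2.04 and 1.77, and ARHGAP11A, a regulator of RhoA, had 1.83 and 1.70. GAS2L3, a linker of actin and microtubules known from cytokinesis that is in none of these lists, ranked first of all members, with 43.1 CPM in mitotic-phase and 13.5 CPM in low-score barcodes of standard 10x and 42.3 and 13.5 CPM in NOTE-seq, ratios of 3.19 (2.75 to 3.71) and 3.13 (2.57 to 3.84).

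Chromosome condensation genes had 2 of 25 higher. TOP2A, the topoisomerase that untangles sister chromatids, had 542 CPM in mitotic-phase and 224 CPM in low-score barcodes of NOTE-seq, a ratio of 2.42 (2.30 to 2.54), and a ratio of 3.21 (3.07 to 3.35) in standard 10x. CDCA3 had ratios of 2.65 and 2.03. MKI67, the Ki-67 proliferation antigen that coats mitotic chromosomes, missed the rule through NOTE-seq, with 1.88 (1.79 to 1.97) in standard 10x and 1.39 (1.32 to 1.46) in NOTE-seq. In the anaphase-promoting complex and separase list FZR1, the CDH1 coactivator, alone was higher, of 18 genes, at 1.75 and 1.65. UBE2S had 972 and 653 CPM in standard 10x and 592 and 448 CPM in NOTE-seq, ratios of 1.49 and 1.32, and FBXO5, an inhibitor of the complex, was on the other side at 0.618 and 0.771.

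In all, 42 of the 82 higher members belong to these mitotic lists, which were chosen with earlier results of these data known. Several of those outside have a known place in division or in the genome. PIF1, a DNA helicase, had 55.6 CPM in mitotic-phase and 14.5 CPM in low-score barcodes of standard 10x and 54.5 and 23.4 CPM in NOTE-seq, the largest ratio among all members in standard 10x, 3.83 (3.33 to 4.42), and one of 2.33 (1.98 to 2.74) in NOTE-seq. G2E3, a ubiquitin ligase, had 111 and 47.7 CPM in standard 10x and 79.0 and 36.2 CPM in NOTE-seq. GPSM2, which orients the spindle, was 1 of 17 higher members with the larger ratio in NOTE-seq, 2.12 (1.84 to 2.45) in standard 10x and 2.40 (1.99 to 2.91) in NOTE-seq. SUN2, a nuclear envelope protein that links to the cytoskeleton, had 13.1 and 4.39 CPM in standard 10x and 27.3 and 14.4 CPM in NOTE-seq. REEP4, which clears endoplasmic reticulum from mitotic chromatin, had 33.6 and 19.2 CPM in standard 10x and 71.1 and 44.5 CPM in NOTE-seq. TNFAIP8L1, of the TNFAIP8 family, had ratios of 2.45 (1.93 to 3.13) and 2.41 (1.96 to 2.97). SUN2 and REEP4, like RHOH, HMOX1, FAM83D and TMEM106A below, were picked after their values were seen.

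The list of unfolded protein response and integrated stress response genes also leaned to the mitotic-phase barcodes. Of 15 measured, 2 were higher in both protocols, and the medians were 0.59 in standard 10x and 0.32 in NOTE-seq. A ratio above 1 in both was found in 13 of them, and in 3475 of all 11104 genes measured. STC2, a secreted glycoprotein, had 21.05 CPM in mitotic-phase and 8.53 CPM in low-score barcodes of standard 10x and 27.6 and 18.0 CPM in NOTE-seq. SLC7A11, the cystine transporter, had 112 and 74.2 CPM in standard 10x and 145 and 94.3 CPM in NOTE-seq. HERPUD1, a component of protein disposal at the endoplasmic reticulum, had ratios of 1.70 and 1.44, and DDIT4, an inhibitor of mTORC1 signalling, 1.80 and 1.36. Heme oxygenase 1 (HMOX1), not in that list, had 28.3 and 16.5 CPM in standard 10x and 10.1 and 6.58 CPM in NOTE-seq. In the methanol library this list had a median of 0.65, beside 0.38 over all genes and 0.60 for ribosome biogenesis genes there, and in the Jurkat libraries 0.15 and -0.15.

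**Figure D2:**
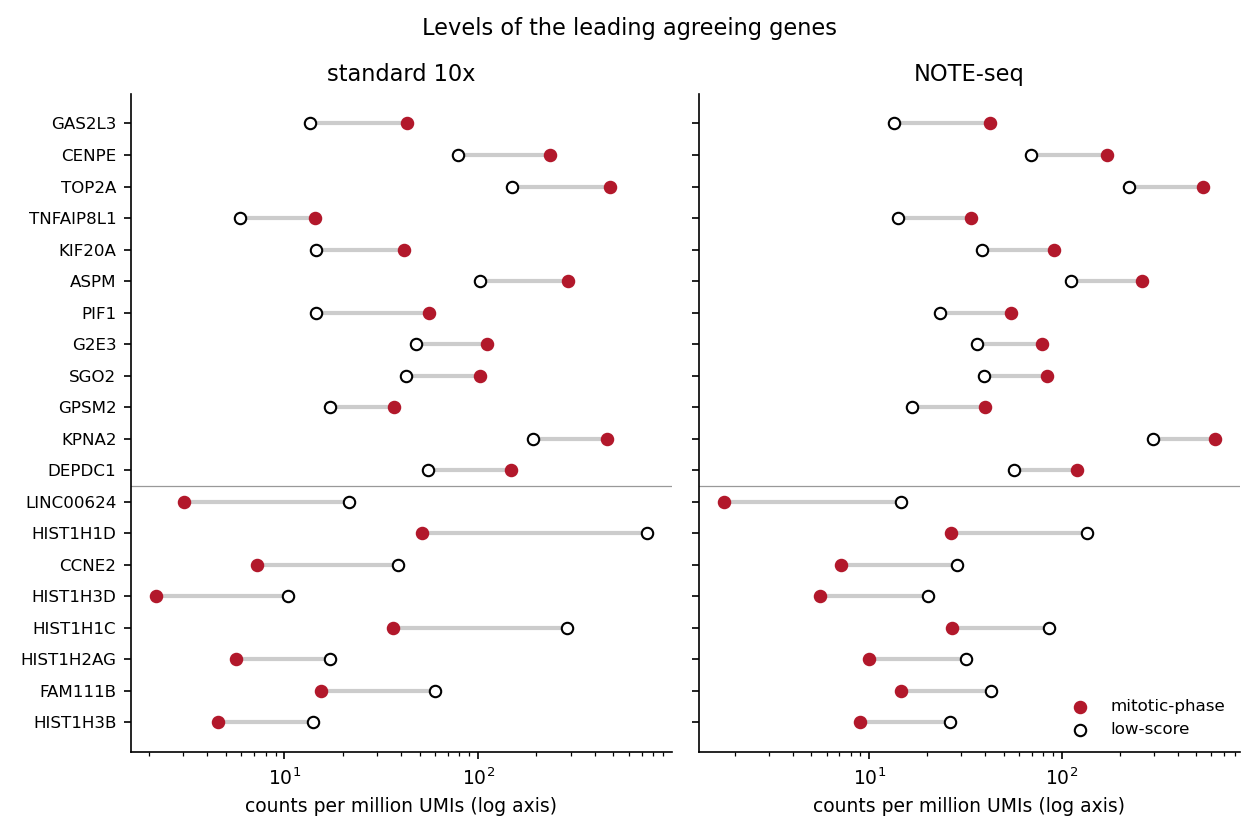
Filled points give CPM in mitotic-phase and open points CPM in low-score barcodes (log axis) for the 12 higher members (above the line) and the 8 lower members (below it) with the largest ratio in the protocol where it was smaller. Filled points lie right of open points for every gene above the line and left of them for every gene below it, and HIST1H1D spans 51.4 and 745 CPM in standard 10x and 26.7 and 136 CPM in NOTE-seq.

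Histone genes led the lower members: 13 of 51 carry a HIST symbol, and of 11 measured genes in the histone list 10 were lower in both protocols and 0 were higher. HIST1H1D, a linker histone, had 51.4 CPM in mitotic-phase and 745 CPM in low-score barcodes of standard 10x, a ratio of 0.0689 (0.0636 to 0.0746), and 26.7 and 136 CPM in NOTE-seq, a ratio of 0.197 (0.168 to 0.229). HIST1H1C, another linker histone, had 36.3 and 288 CPM in standard 10x and 27.0 and 85.9 CPM in NOTE-seq. HIST1H4C, which encodes histone H4, had 332 CPM in mitotic-phase and 1288 CPM in low-score barcodes of standard 10x, 156 and 329 CPM in NOTE-seq and 471 and 1489 CPM in methanol. The core histone genes HIST1H3D, HIST1H2AG and HIST1H3B had ratios of 0.206, 0.326 and 0.324 in standard 10x and of 0.275, 0.313 and 0.341 in NOTE-seq. The list's median log2 ratio, over those of its genes measured in the library, was -1.95 in standard 10x and -1.40 in NOTE-seq. All 14 HIST genes measured had a ratio below 1 in both protocols, beside 3131 of all 11104 genes measured. The 3' kits capture poly(A) RNA, most replication histone mRNAs end in a stem-loop without a tail, and their coding sequences are near-identical, so the split of counts between histone genes is uncertain.

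Genes of G1/S and DNA replication were lower almost throughout but by less. Of 46 measured, 7 passed the rule and 0 were higher, with medians of -0.42 in standard 10x and -0.35 in NOTE-seq. In 44 of them, and in 3131 of all 11104 genes measured, the ratio was below 1 in both protocols. CCNE2, cyclin E2, had 7.2 CPM in mitotic-phase and 38.8 CPM in low-score barcodes of standard 10x, a ratio of 0.186 (0.148 to 0.231), and 7.16 and 28.5 CPM in NOTE-seq, a ratio of 0.251 (0.182 to 0.339). CCNE1, cyclin E1, had ratios of 0.481 and 0.626. CDC6, a loader of the replicative helicase, had 46.5 and 83.8 CPM in standard 10x and 43.1 and 80.4 CPM in NOTE-seq. PCNA, the sliding clamp of DNA polymerases, had 107 and 169 CPM in standard 10x and 118 and 199 CPM in NOTE-seq. FEN1, the flap nuclease of lagging strand synthesis, CLSPN, a replication checkpoint adaptor, and E2F1, the transcription factor of this gene set, had ratios of 0.602, 0.589 and 0.628 in standard 10x and of 0.587, 0.657 and 0.638 in NOTE-seq.

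Other lower members included FAM111B, with 15.4 CPM in mitotic-phase and 59.6 CPM in low-score barcodes of standard 10x and 14.6 and 42.9 CPM in NOTE-seq, and E2F7, a repressor of E2F targets, with ratios of 0.415 and 0.557. RAD54L and RMI2, both of homologous recombination, had ratios of 0.575 and 0.642 in standard 10x and of 0.609 and 0.602 in NOTE-seq. LINC00624, a long non-coding RNA, ranked first of the lower members, with 3.04 and 21.7 CPM in standard 10x and 1.75 and 14.7 CPM in NOTE-seq, ratios of 0.140 (0.098 to 0.196) and 0.119 (0.0605 to 0.214). The G2/M transcription factor and DREAM list, the regulators themselves, had 0 of 18 higher and 1 lower, E2F7, with medians of -0.18 and -0.10. FOXM1 had log2 ratios of -0.00 and 0.11 and MYBL2, which encodes B-MYB, -0.17 and -0.20 in standard 10x and NOTE-seq. In the remaining lists no gene passed the rule in either direction among 73 cytosolic ribosomal protein genes, 33 of ribosome biogenesis, 20 of cholesterol synthesis, 18 of glycolysis, 18 heat shock and chaperone genes, 13 mitochondrially encoded genes, and 9 D cyclins and CDK inhibitors. Of 13 immediate early genes 1 was lower, CCN2, a secreted matrix protein, with ratios of 0.523 and 0.413.

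**Figure D3:**
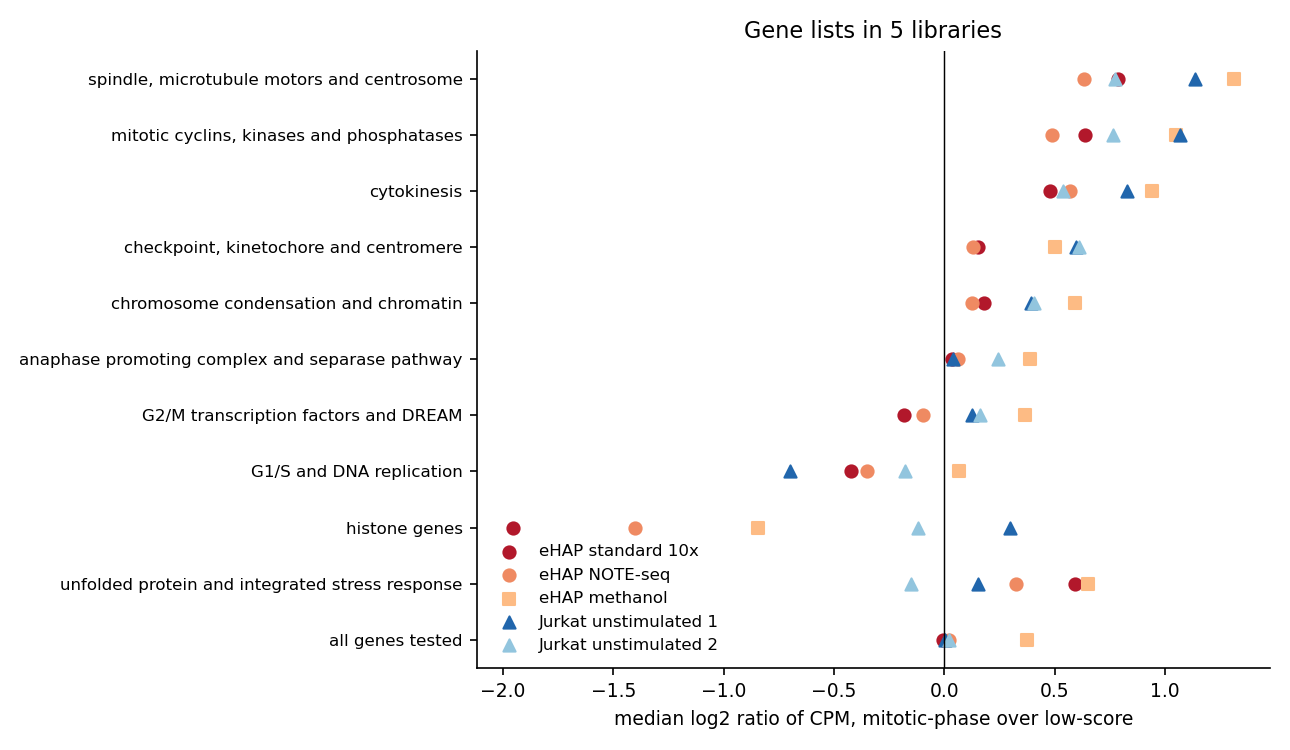
Each point is the median log2 ratio of CPM, mitotic-phase over low-score barcodes, of 1 gene list in 1 of 5 libraries, with the median of all genes in the bottom row. Spindle genes lie between 0.63 and 1.31 in the 5 libraries, and the histone list lies between -1.95 and -0.85 in the eHAP libraries and at 0.30 and -0.12 in the Jurkat libraries.

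Along the score, in 10 equal bins of barcodes from the lowest (bin 1) to the highest (bin 10), the 82 higher members summed to 3255 CPM in bin 1, 4116 in bin 5 and 8283 in bin 10 of the eHAP standard 10x library, and to 3796, 4799 and 8325 CPM in the eHAP NOTE-seq library. Bins 9 and 10 hold the mitotic-phase barcodes and bins 1 to 4 the low-score ones, so the direction of these members between the ends is fixed by the rule in standard 10x and NOTE-seq, and the bins only describe it. TOP2A stood at 136 CPM in bin 1, 174 in bin 5 and 538 in bin 10 of standard 10x, and CDK1 at 99.9, 95.9 and 277 CPM. Histone genes went the other way, at 3767 CPM in bin 1, 2591 in bin 5 and 735 in bin 10 of standard 10x and at 1597, 1299.6 and 849 CPM in NOTE-seq. CCNE2 stood at 43.8 CPM in bin 1, 26.7 in bin 5 and 6.8 in bin 10 of standard 10x, while CCNE1 was highest there in bin 2, at 41.1 CPM. In the eHAP methanol library the G1/S list was lowest in bin 1, at 2037 CPM, and highest in bin 5, at 2890 CPM. Of its 2865 barcodes with at least 5000 UMIs 92 had a score of 0, against 5 in standard 10x and 10 in NOTE-seq.

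**Figure D4:**
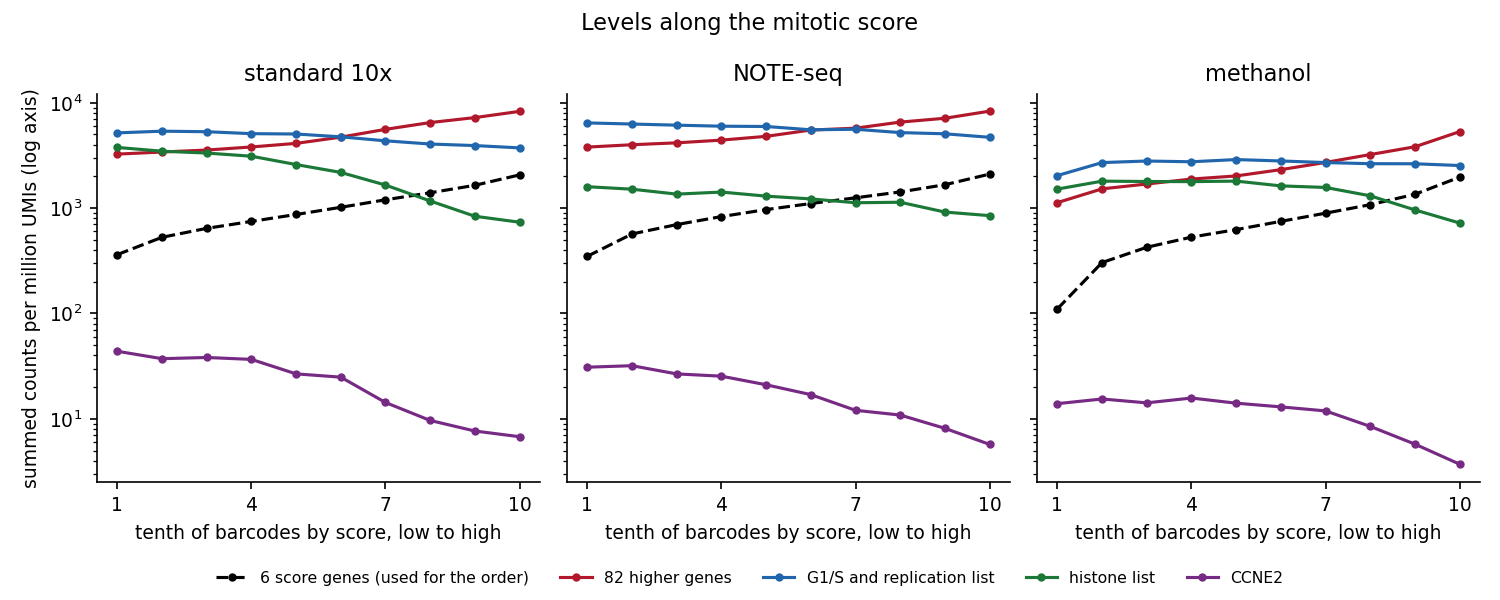
Summed CPM (log axis) of gene sets and of CCNE2 in 10 bins of barcodes ordered by the score, low to high, in the 3 eHAP libraries; the score genes set the order and are dashed. In the eHAP standard 10x panel the 82 higher genes end at 8283 CPM and the histone list at 735 CPM.

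The methanol-fixed eHAP library and the Jurkat libraries did not choose the members, so they show the same rule applied to other barcodes, again as a description. It gave 573 mitotic-phase and 1146 low-score barcodes in methanol, 352 and 704 in the first Jurkat library, and 56 and 111 in the second. The second Jurkat library is thus the least certain. In the methanol library the median log2 ratio of all genes was 0.38, and 22.7% of genes were at least 1.5-fold higher and 0.525% lower. Beside it, mitotic-phase and low-score barcodes of that library had medians of 24041 and 13295.5 UMIs, 1747 and 1476 genes after thinning, and 31.1% and 37.4% of UMIs from ribosomal protein genes. The part of these differences in the gene ratios was not tested. There 69 of 71 higher members with enough UMIs were higher, with a median of 1.45, or 65 of 71 once the median of all genes was taken off, a step added after seeing the data. Of the lower members 10 of 37 were lower, with a median of -0.34, or 25 of 37 relative to the median of all genes, where every one of the 37 lay below it. The shares of 22.7% and 0.525% of all genes are without this step, and the shares with it were not computed. Taking off a median above 0 by itself lets more genes pass as lower.

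In Jurkat cells the higher members stood out as in eHAP cells, and the lower members did so in part. In the first library 3.18% of all genes were higher and 3.77% lower, and in the second 2.9% and 1.72%. Of the higher members 64 of 71 were at least 1.5-fold higher in the first library, with a median log2 ratio of 1.30, and 46 of 52 in the second, with a median of 0.96. PIF1 had 35.3 CPM in mitotic-phase and 4.04 CPM in low-score barcodes of the first library and 50.0 and 12.8 CPM in the second, and HMMR had 174 and 24.5 CPM and 112 and 33.9 CPM. GAS2L3, the first-ranked member in eHAP, was near the floor in Jurkat, with 2 UMIs in mitotic-phase and 2 in low-score barcodes of the first library. RHOH, a GTPase of blood cells, was far higher in level in Jurkat, at 179 and 194 CPM in the first library and 117 and 127 CPM in the second, log2 ratios of -0.11 and -0.12, while standard 10x had 4.00 and 2.55 CPM.

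Of the lower members 13 of 33 were lower and 2 higher in the first Jurkat library, with a median of -0.50, and 3 of 17 were lower in the second, with a median of -0.23. The G1/S list had medians of -0.70 and -0.18 in the Jurkat libraries. CCNE1 had 3.50 CPM in mitotic-phase and 14.9 CPM in low-score barcodes of the first library and 4.46 and 17.7 CPM in the second, and CDC6 had 27.7 and 69.96 CPM in the first and 23.2 and 48.5 CPM in the second. Histone genes were mixed in Jurkat cells. Of 15 HIST genes measured in the first Jurkat library 13 had a ratio above 1, with a median log2 ratio of 0.48, and HIST1H4C had 318 CPM in mitotic-phase and 189 CPM in low-score barcodes of the first library and 336 and 313 CPM in the second. HIST1H1D had 36.6 CPM in mitotic-phase and 50.6 CPM in low-score barcodes of the first, and in the second its ratio was 0.853, with HIST1H1C at 0.966, HIST1H3B at 0.790 and the list's median log2 ratio at -0.12. For HIST1H4C the NOTE-seq eHAP library, of the same protocol, had 156 and 329 CPM.

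The bulk Jurkat libraries give the 1 readout of these genes with replicates that the score did not touch: total RNA with ETO or CPT against control, tested across 17369 genes with edgeR's quasi-likelihood test and Benjamini-Hochberg adjustment at 0.05. Both comparisons share the same 3 control libraries. In bulk RNA, fewer cells of a phase and less RNA per cell cannot be told apart. The libraries held 17776970 to 39602287 reads over 3' UTRs, with 1 line kept per overlapping group and mitochondrial genes left out. Levels below are CPM of these reads. With ETO 17.2% of all genes rose and 17.1% fell, and with CPT 23% rose and 24.7% fell. Of the higher members 71 of 82 were measured. With ETO 43 of them fell and 8 rose, 60.6% and 11.3%, with a median log2 fold change of -0.37 beside 0.01 over all genes. With CPT 38 fell and 11 rose, 53.5% and 15.5%, with a median of -0.29 beside -0.00.

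All 6 score genes fell with both agents. PLK1 had 90.3, 91.3 and 96.1 CPM with ETO and 119, 131 and 123 with CPT, against 237, 217 and 200.4 in control. The treated libraries lay below every control library, with log2 fold changes of -1.22 ± 0.07 (SE) with ETO and -0.78 ± 0.07 with CPT (n = 3 each, adjusted p = 8.92e-12 and 3.44e-09 by edgeR). UBE2C, almost silent in eHAP, had 77.9, 76.1 and 71.2 with ETO and 104, 98.7 and 103 with CPT, against 164, 157 and 145 in control, changes of -1.04 ± 0.07 and -0.58 ± 0.07 (adjusted p = 1.15e-10 and 2.33e-07 by edgeR). CCNB1, CDC20, AURKA and CENPF changed by -0.84, -0.79, -0.86 and -0.49 with ETO and by -0.78, -0.55, -0.52 and -0.55 with CPT.

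The leading higher members mostly fell as well. PIF1 had 13.6, 15.1 and 14.7 CPM with ETO and 13.2, 13.5 and 13.5 with CPT, against 26.9, 25.7 and 32.4 in control. Its changes were -0.95 ± 0.11 and -1.05 ± 0.11 (adjusted p = 6.64e-07 and 8.97e-08 by edgeR), with no overlap between groups. SUN2 fell most with ETO, to 36.4, 35.1 and 30.5, with 48.9, 48.5 and 49.5 with CPT, against 90.2, 94.0 and 88.9 in control, changes of -1.41 ± 0.08 and -0.86 ± 0.08 (adjusted p = 8.29e-12 and 5.52e-09 by edgeR). CENPE changed by -0.92 with ETO and -0.97 with CPT, TOP2A by -0.60 and -0.60, GPSM2 by -0.81 and -0.70, and KIF14, a motor of cytokinesis, by -0.84 and -0.84. Of all genes 17.1% fell and 17.2% rose with ETO, and 24.7% fell and 23% rose with CPT. Of the spindle list 21 of 37 fell and 2 rose with ETO, and 21 fell and 6 rose with CPT. TPX2 was among those that rose, at 302, 311 and 321 with ETO and 334, 324 and 298 with CPT, against 272, 292 and 284 in control, changes of 0.15 ± 0.06 and 0.20 ± 0.06 (adjusted p = 0.0385 and 0.00487 by edgeR). With ETO that call was lost in 8 of 10 alternatives tried. AURKB, the kinase of the passenger complex, rose to 373, 383 and 381 with ETO and 361, 395 and 379.7 with CPT, against 324, 316 and 309 in control, by 0.28 ± 0.05 and 0.29 ± 0.05 (adjusted p = 0.000221 and 7.21e-05 by edgeR).

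Both members of the stress response list rose. Of 71 higher members measured, 8 rose and 43 fell with ETO, and 11 rose and 38 fell with CPT. Outside that list SLC6A9, RGS16 and APOLD1 rose by 1.71, 1.62 and 0.84 with ETO. With CPT they rose by 0.82, 1.04 and 1.36. SLC7A11 had 39.4, 41.8 and 41.5 CPM with ETO and 33.3, 32.3 and 30.0 with CPT, against 11.3, 11.2 and 12.6 in control, and STC2 had 65.8, 68.0 and 68.1 with ETO and 29.5, 38.6 and 35.0 with CPT, against 17.4, 18.1 and 18.4. Every treated library lay above every control library in both. SLC7A11 rose by 1.82 ± 0.09 and 1.47 ± 0.09 and STC2 by 1.92 ± 0.09 and 0.97 ± 0.09 on the log2 scale with ETO and CPT (largest adjusted p = 2.13e-08 by edgeR). Of 14 measured genes of that list 10 rose and 2 fell with ETO, and 9 rose and 2 fell with CPT. Beside them, 17.2% of all genes rose and 17.1% fell with ETO, and 23% rose and 24.7% fell with CPT.

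Of the lower members 24 of 51 were measured. With ETO 8 rose and 2 fell, 33.3% and 8.33%, beside 17.2% and 17.1% of all genes, with a median of 0.17. With CPT 16 rose and 0 fell, 66.7% and 0%, beside 23% and 24.7% of all genes, with a median of 0.68. Without the second control library or the first ETO library 5 rose with ETO. With CPT 1 of the 24 lay lower at an unadjusted p below 0.05 in edgeR, DESeq2 called 0 lower, and without the third control library edgeR called 1. CDC6 had 88.5, 86.6 and 85.5 CPM with ETO and 131, 122 and 124 with CPT, against 63.4, 60.8 and 58.9 in control. It rose by 0.52 ± 0.06 with ETO and by 1.07 ± 0.06 with CPT (adjusted p = 1.44e-06 and 1.08e-11 by edgeR). E2F1 had 92.1, 84.1 and 81.6 with ETO and 131, 123 and 133 with CPT, against 55.5, 64.3 and 60.3 in control, rising by 0.53 ± 0.07 and 1.13 ± 0.07 (adjusted p = 5.23e-06 and 2.75e-11 by edgeR). CCNE1 rose by 1.01 ± 0.08 with CPT (adjusted p = 1.17e-09 by edgeR), to 88.5, 79.7 and 80.5 against 39.7, 41.6 and 45.1 in control, while with ETO it had 41.0, 46.2 and 47.9 and changed by 0.11 ± 0.08 (adjusted p = 0.304 by edgeR). The difference between the agents was not tested. HIST1H4C fell with ETO, to 104.6, 104.9 and 100.6 CPM, against 118, 150.4 and 160.5 CPM in control (-0.45 ± 0.08, adjusted p = 0.000227 by edgeR), and had 143, 126 and 142 with CPT (-0.04 ± 0.08, adjusted p = 0.759 by edgeR). The other measured HIST members were HIST3H2A, HIST1H3D and HIST1H2AC, and the rest of the 13 were not measured. HIST3H2A changed by -2.18 ± 0.21 with ETO (adjusted p = 6.28e-08 by edgeR) and -0.20 ± 0.19 with CPT. HIST1H3D and HIST1H2AC rose with CPT, by 2.21 ± 0.33 and 4.12 ± 0.87 (adjusted p = 7.66e-06 and 0.000489 by edgeR). With ETO they changed by 0.82 and 1.90 without a call. HIST1H2AC had at most 0.124 CPM in control. Of 39 measured genes of the G1/S list 24 rose and 2 fell with ETO, and 28 rose and 1 fell with CPT.

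**Figure D5:**
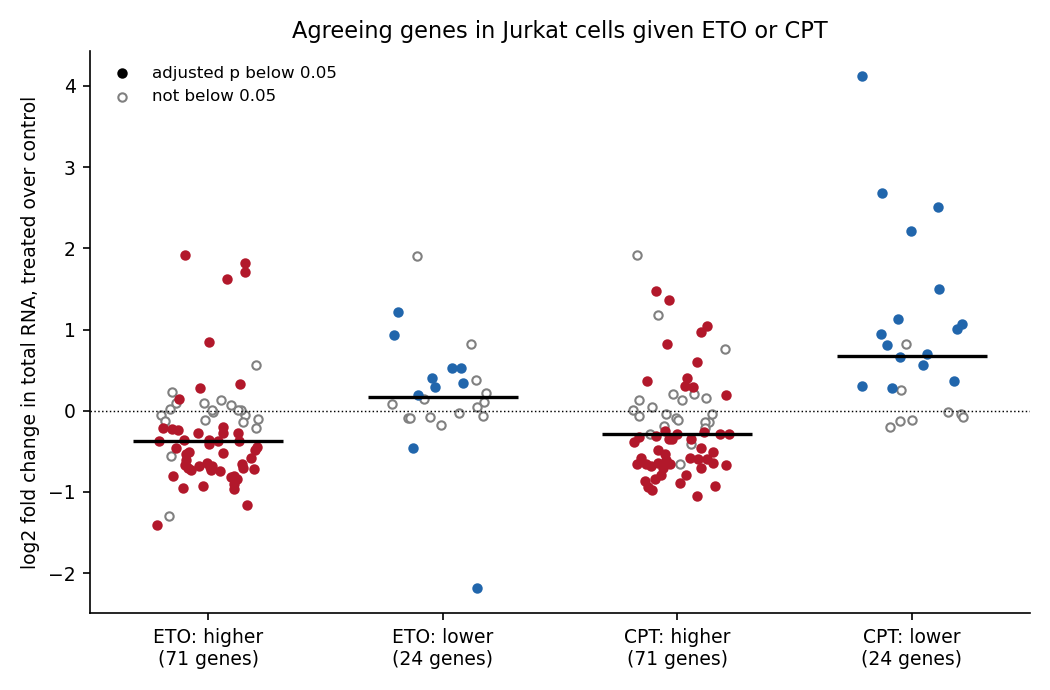
Points are log2 fold changes in total RNA of the members measured in bulk Jurkat cells, ETO or CPT over control, filled where the adjusted p of edgeR is below 0.05 and spread sideways at random; bars are medians. With either agent most filled points of the higher members lie below 0, with medians of -0.37 (ETO) and -0.29 (CPT), and those of the lower members mostly above, with medians of 0.17 and 0.68.

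Higher members with and without a CHR differed by a small amount in the same libraries. With ETO 27 of 39 higher members with a CHR fell and 3 rose, with a median of -0.45, and 12 of 20 without one fell and 3 rose, with a median of -0.25. With CPT 24 of 39 with a CHR fell and 5 rose, with a median of -0.33, and 11 of 20 without one fell and 4 rose, with a median of -0.27. Over all genes 17.1% fell and 17.2% rose with ETO, and 24.7% fell and 23% rose with CPT. The splits by CHR are counts of genes and were not tested.

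In SLAM-seq, 4sU in newly made RNA is read as a T-to-C conversion. The converted share of a gene's reads in the 3 control libraries thus rises with the part of its RNA made during labelling. It also depends on how many Ts the reads cover, which was not corrected for, and no unlabelled background was taken off. Over 64 higher members with at least 100 reads in each library the median share was 4.90% ± 0.18 (SD, n = 3), and over 18 lower members 3.88% ± 0.25, beside 2.53% over 11363 genes. It was above that level in 55 of 64 higher and 14 of 18 lower members. FAM83D, which brings casein kinase 1 to the spindle, had the highest share of the higher members, 26.5%, 22.2% and 23.3% in the 3 libraries, and E2F7 the highest of the lower members, 17.6%, 23.4% and 20.9%. KIF20A had 9.11%, 13.0% and 10.7%, and CCNE2 11.7%, 14.9% and 9.99%. The lowest of the higher members was TMEM106A, with 0% in each library, where a count of 0 allows up to 1.30%, 1.21% and 1.28%. Next came REEP4, at 1.11%, 0.759% and 0.861%, and the lowest of the lower members was E2F1, at 0.755%, 0.914% and 1.15%. TOP2A, at 5.06%, 5.29% and 5.56%, and PCNA, at 5.35%, 4.51% and 4.32%, lay between the extremes.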

How the data were processed

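The single-cell libraries used here were deposited by the authors as UMI count matrices, made with Cell Ranger 7.1.0 per the file headers, on GRCh38 per the submitters' processing notes. Bulk SLAM-seq read counts and converted read counts per 3' UTR (GENCODE 33) were made by the authors with slamdunk 0.4.3, per the file headers. Of these, the eHAP and Jurkat NOTE-seq and methanol libraries were 4sU labelled and fixed before counting, and standard 10x was not 4sU labelled. From these, UMIs were summed per group of barcodes and given as CPM. Genes needed 100 UMIs in a library, summed over both groups of barcodes. No doublets were called. Ratios carry 95% exact binomial intervals, which cover counting error only. Overlapping 3' UTR lines were grouped, and the line with the most reads was kept for each group. Groups were named by the RefSeq gene ending within 1000 bases on that strand, where the strand was known. This gave 23884 genes, with 85.4% of the reads of the kept lines. The 131 symbols matched on both strands were dropped. Mitochondrial genes are not among the bulk genes. edgeR 4.0.16 (R 4.3.3) fitted all 9 bulk libraries with TMM factors, filterByExpr and quasi-likelihood tests. Python 3.11.15, numpy 2.4.6, scipy 1.17.1 and pandas 2.3.3 did the rest, and both kinds of computation were tested on simulated data.

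Genes named are the 12 higher and 8 lower members with the largest ratio in the protocol where it was smaller, the 6 score genes, and up to 4 genes per list by the same measure; any others were chosen after their values were seen. Members and lists were chosen with earlier results of these data known. Alternatives covered the barcode, gene and fold thresholds, the score genes, thinning, scaling, DESeq2 1.42.0, no count filter, a replicate block and leaving out each bulk library. The other libraries of the study were not used here.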

Additional observations from a re-analysis of the deposited data

How the results depend on the processing

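The counts of 82 higher and 51 lower genes depend most on the thresholds. A threshold of a 25% higher level in either group gave 301 and 286 genes, and a fold of 2 gave 17 and 14. Thinning every barcode to 5000 UMIs gave 41 and 16. The highest 10% of barcodes gave 77 lower genes, all barcodes outside the highest 20% in place of the lowest 40% gave 35 higher genes, and a score over CCNB1 and PLK1 alone gave 47 higher genes. At least 30 UMIs per gene gave 142 lower genes and at least 300 gave 21. In some alternatives the lower genes themselves changed more than their number. The lowest 20% of barcodes as low-score gave 53, with 30 of the 51 among them. All barcodes outside the highest 20% gave 45, with 22 of the 51. A score without CENPF gave 60, with 31 of the 51. Of the 82 higher genes, 72, 33 and 54 were kept in these settings, in the same order. The methanol library in place of standard 10x gave 13 lower genes and in place of NOTE-seq 14. Ratios taken relative to the median of all genes, added after seeing the data, gave 25 lower members in methanol instead of 10. The share of all genes on that scale was not computed. In the 18 single-cell alternatives that recompute single genes in standard 10x and NOTE-seq, 531 of 3168 values of named genes moved beyond their counting interval and 2637 did not. None of the 1404 values of 39 named members among them changed sign, a weak measure for genes picked for large ratios, and in the methanol library the lower member CCNE1 had a log2 ratio of 0.07. The causes of these shifts were not tested. With 1 library per protocol and 56 mitotic-phase barcodes in the second Jurkat library, depth limits low genes most.

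In bulk RNA, leaving out 1 library at a time gave 39 to 43 higher members that fell and 7 to 8 that rose with ETO, and 33 to 40 and 10 to 12 with CPT. Lower members that rose numbered 5 to 8 with ETO and 15 to 16 with CPT, and those that fell 2 to 2 and 0 to 1. With no filter beyond 1 read, 1 lower member fell with CPT. Same-numbered libraries did not deviate together (correlations of -0.06, -0.01 and -0.00 with ETO and of -0.05, 0.01 and -0.02 with CPT). That cannot show whether they were handled together, and the labels do not say. With a replicate block 41 higher members fell and 7 rose with ETO, and 38 and 11 with CPT; 8 lower members rose and 2 fell with ETO, and 16 and 0 with CPT.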
